A study of Mus musculus with 9 samples.

Results

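Chromatin accessibility was described at 10 genes, Smndc1 and its partners in the U2 branch of the spliceosome, in alphaTC1 cells, a murine pancreatic alpha cell line. The members were the consensus regions that overlap the body of Smndc1, Smn1, U2af1, U2af2, Sf3a1, Sf3a3, Sf3b1, Sf3b2, Sf3b3 or Sf1 extended by 5 kb on both sides. They are 20 of 80827 regions, placed by position. ATAC-seq, in which a transposase inserts adapters into open DNA, was done on cells that had received an shRNA against Smndc1, an shRNA against Atrx or the empty vector by transduction (9 libraries, 3 biological replicates in each group). All were taken 5 days after transduction, and the 3 groups share the cell line and the transduction. A chromatin remodeler, Atrx, is not a splicing factor. An shRNA acts on the RNA, so accessibility at Smndc1 is no check of the knockdown. In bulk libraries a smaller share of cells with an open site and less signal in each cell cannot be told apart.

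Smndc1 encodes a splicing factor with a Tudor domain that is needed for spliceosome assembly, and its relative Smn1 encodes the core of the complex that loads Sm proteins onto small nuclear RNAs. The 3-prime splice site of an intron is first read by Sf1, which binds the branch point, and by the U2AF dimer, in which U2af2 binds the pyrimidine tract and U2af1 the AG dinucleotide. The U2 particle then replaces Sf1 at the branch point, held there by the SF3a complex (Sf3a1, Sf3a3 and others) and the SF3b complex (Sf3b1, Sf3b2, Sf3b3 and others). These factors act on introns in nearly every cell type.

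The promoter sequences below show which annotated start of Smndc1 and of Smn1 lies in open chromatin, and the starts of Sf3a3 and Sf3b1, the start regions with the largest fold changes against the empty vector. Each runs 5′ to 3′ on the gene's strand from 250 bases before the start to 50 after it, from RefSeq on GRCm38.p6. Capitals mark the letters of any of 7 searched motifs.
Smndc1, start within the open region, chr19:53390585-53390884, minus strand: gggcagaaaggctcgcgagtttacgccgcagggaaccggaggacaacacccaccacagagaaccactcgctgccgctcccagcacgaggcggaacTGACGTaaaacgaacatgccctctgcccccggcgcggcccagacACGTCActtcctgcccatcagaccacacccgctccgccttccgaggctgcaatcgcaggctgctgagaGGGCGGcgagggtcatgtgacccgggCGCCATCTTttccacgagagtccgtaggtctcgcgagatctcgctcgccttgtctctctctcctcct
Smndc1, start outside it, chr19:53389992-53390291, minus strand: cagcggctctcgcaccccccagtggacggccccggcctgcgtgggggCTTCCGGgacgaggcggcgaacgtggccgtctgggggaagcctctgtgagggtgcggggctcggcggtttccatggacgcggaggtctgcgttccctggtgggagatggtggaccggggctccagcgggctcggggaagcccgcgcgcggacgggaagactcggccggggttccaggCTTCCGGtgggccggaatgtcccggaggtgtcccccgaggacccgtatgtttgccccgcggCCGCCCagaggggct
Smn1, start within the open region, chr13:100124605-100124904, plus strand: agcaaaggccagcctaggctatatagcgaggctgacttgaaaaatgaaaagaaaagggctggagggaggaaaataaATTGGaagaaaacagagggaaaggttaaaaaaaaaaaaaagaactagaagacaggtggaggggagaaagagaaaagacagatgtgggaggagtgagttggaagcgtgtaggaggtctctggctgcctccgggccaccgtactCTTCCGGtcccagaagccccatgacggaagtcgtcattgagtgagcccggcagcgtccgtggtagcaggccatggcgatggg
Smn1, start outside it, chr13:100122955-100123254, plus strand: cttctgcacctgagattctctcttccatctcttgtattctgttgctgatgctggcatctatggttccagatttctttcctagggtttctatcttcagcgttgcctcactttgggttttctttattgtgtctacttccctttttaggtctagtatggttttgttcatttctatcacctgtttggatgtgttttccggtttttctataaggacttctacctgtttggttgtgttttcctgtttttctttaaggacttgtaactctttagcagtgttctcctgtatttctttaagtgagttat
Sf3a3, chr4:124714611-124714910, plus strand: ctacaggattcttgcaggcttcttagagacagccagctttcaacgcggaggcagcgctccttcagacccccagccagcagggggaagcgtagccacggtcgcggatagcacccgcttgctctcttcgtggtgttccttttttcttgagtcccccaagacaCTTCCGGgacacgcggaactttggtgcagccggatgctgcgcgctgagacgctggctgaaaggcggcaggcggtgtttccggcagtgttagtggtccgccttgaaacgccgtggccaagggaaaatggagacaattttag
Sf3b1, chr1:55027429-55027728, minus strand: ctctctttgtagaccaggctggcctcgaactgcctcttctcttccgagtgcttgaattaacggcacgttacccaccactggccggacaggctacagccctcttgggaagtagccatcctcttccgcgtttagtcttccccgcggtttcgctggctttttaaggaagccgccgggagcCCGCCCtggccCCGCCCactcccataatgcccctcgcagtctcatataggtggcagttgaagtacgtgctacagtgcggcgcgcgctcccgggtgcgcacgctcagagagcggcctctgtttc

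The open region of Smndc1 (chr19:53390429-53391080, 652 bp) took in all 300 bases of the first sequence and 0 of the second, which comes from the inner start. That of Smn1 (chr13:100124556-100125287, 732 bp) covered the inner start and 0 bases of the outer one. The outer Smn1 sequence has 38.3% G and C and 2 CpG dinucleotides, against 51.3% and 11 at the inner one. Both Smndc1 starts are rich in G and C, with 64.3% and 29 CpG in the open sequence and 74.0% and 35 CpG in the other. The median over all 32851 promoter entries is 52.7% with 7 CpG.

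The table held 13 promoter entries for 9 of the genes, and none for U2af2. The ETS core CCGGAAG, searched like the others on both strands, is in 7 of the 13 entries (6 genes), and in 8.86% of all entries. TGACGT, the CRE half-site, is in 4 entries of 3 genes, against 7.51% of all entries. In Smndc1 it starts at -155 and, on the opposite strand, at -111 from the open start, and Sf1 and U2af1 hold it too. AAGATGGCG, a YY1 motif, is in 2 entries, at -17 from the open start of Smndc1 and at 29 from that of Sf3a1, and in 1.40% of all entries. The GC box GGGCGG is in 7 entries (35.7% of all), CCAAT in 7 (37.4%), TATAAA in 1, that of Sf3b3 (13.6%), and the NRF1 motif GCGCATGC in 1, that of Sf1 (2.71%). The entries of U2af1 overlap each other, as do those of Sf3b2, and a match is only a description of the letters. The motifs were chosen after some of these sequences had been seen.

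The libraries held 5290810 to 8145228 counts over all regions, and 3249 to 5443 counts fell in the 20 regions. The strongest 10% of regions held 38.5% to 38.8% of the counts in replicate 3 of each group, against 43.3% to 48.8% in the other 6 libraries. This split in contrast runs through each group alike. Levels are given as CPM, the counts over the TMM-scaled library total in M. A second fit, with trended offsets, evens out the contrast by taking each library's loess curve against mean log2 count as an offset, and is given beside the first. Among alpha cell markers, the strongest region had 31.4 CPM at Gcg, 60.9 CPM at Irx2 and 4.11 CPM at Ttr. No region lay at Ins1, Pdx1, Slc2a2, Sst, Hhex, Ptf1a or Krt19, while the hormone gene Ppy (26.6 CPM), Ins2 (5.29 CPM) and the acinar gene Cpa1 (4.29 CPM) had regions. Beta cell genes Mafa (51.7 CPM) and Nkx6-1 (49.2 CPM), endothelial Pecam1 (44.4 CPM), immune Cd68 (37.1 CPM) and fibroblast Col1a1 (36.7 CPM) also had regions, and accessibility is not expression.

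Each gene with a promoter entry had an open region over a start, 9 of 9, while 8649 of 17274 coding genes with an entry did (50.1%). A further 11 regions lay away from a listed start, with 4 inside a gene, 5 outside and 2 over the bounds of U2af2. Smndc1, Smn1 and Sf3a3 had 1 region each, U2af1, Sf3a1, Sf3b2 and Sf1 had 2, and U2af2, Sf3b1 and Sf3b3 had 3. For 6 of the 20 the same bases also lie in the body of another coding gene. These are 2 regions of U2af2 (Ccdc106 and Epn1), the start region of Sf3a1 (Ccdc157) and that of Sf3b3 (Cog4), and the outer regions of Sf3a1 (Tbc1d10a) and Sf3b2 (Pacs1). Exons and introns were not placed here.

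**Figure D1:**
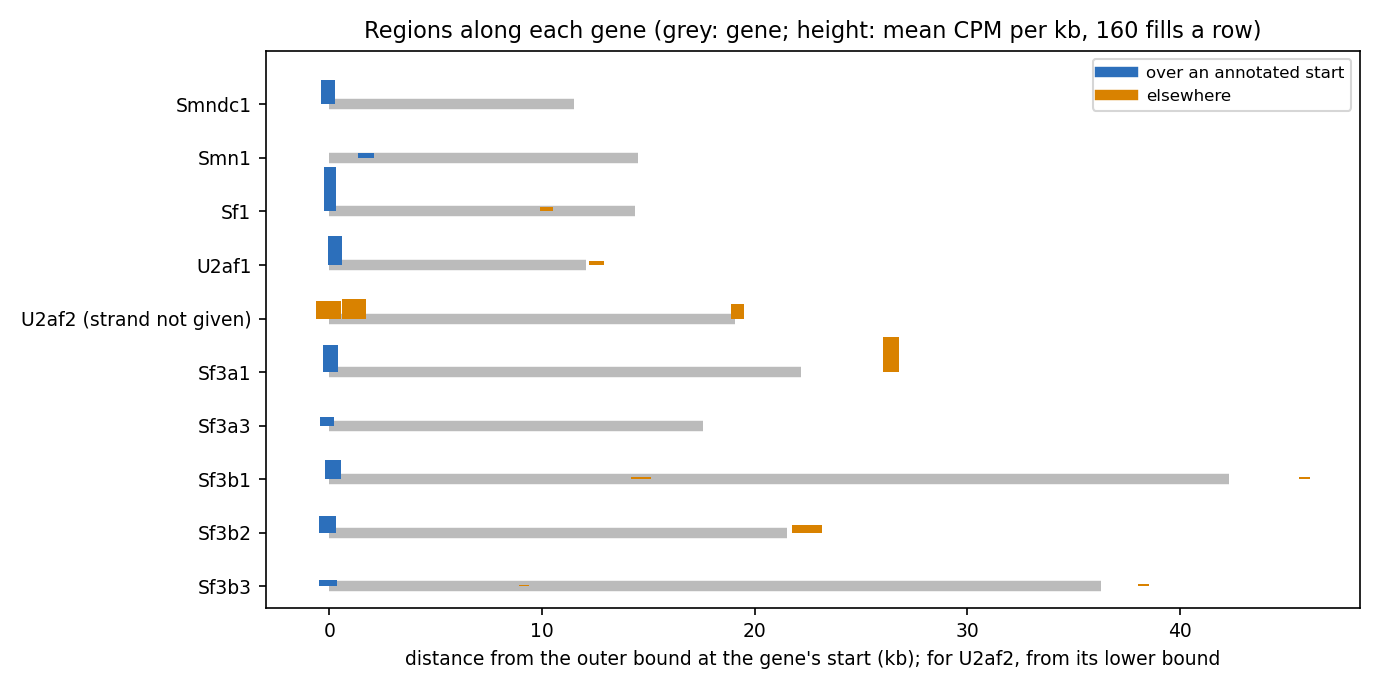
Open regions along the 10 genes, with distance from the bound at the gene's start in kb on the x axis and each region's mean level over 9 libraries as its height (CPM per kb). Regions over an annotated start are blue and the other 11 are orange. All 9 genes with an annotated start show a blue block there, and U2af2 shows 2 adjoining blocks at its lower bound.

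Levels per length differed widely between the start regions. Sf1 stood highest, at 133 ± 34.0 CPM per kb (mean ± SD over 9 libraries), above 98.0% of the 8289 start regions that passed the filter. U2af1 had 86.9 ± 15.2, Sf3a1 80.2 ± 9.13 and Smndc1 73.4 ± 16 CPM per kb. Smndc1 thus ranked above 83.1% of start regions, whose median was 42.2 CPM per kb. Sf3b1 followed with 56.3 ± 14.4 and Sf3b2 with 51.7 ± 6.06. Sf3a3 (25.5 ± 5.55), Sf3b3 (19.2 ± 3.67) and Smn1 (15.7 ± 3.20) were lowest, and Smn1 exceeded only 9.43% of start regions. The order was not firm everywhere. Sf1 was above U2af1, Smndc1 above Sf3b1 and Sf3b2 above Sf3a3 in 9 of 9 libraries, but U2af1 was above Sf3a1 in 6, Sf3a1 above Smndc1 in 5 and Sf3b1 above Sf3b2 in 6 of 9. Sf3a3 was above Sf3b3 in 7 and Sf3b3 above Smn1 in 8 of 9.

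The groups overlapped at the start region of Smndc1. It stood at 39.3, 55.6 and 38.7 CPM with Smndc1 shRNA, at 57.3, 59.9 and 32.1 CPM with Atrx shRNA and at 56.3, 52.5 and 39.0 CPM with the empty vector (198 to 405 counts). The groups overlap, and replicate 3 is the lowest library in each. The log2 fold change of Smndc1 shRNA against the empty vector was -0.15 ± 0.26 (SE), with a 95% interval of -0.66 to 0.37 (edgeR quasi-likelihood adjusted p = 0.939). With trended offsets the interval narrowed to -0.36 to 0.16. Atrx shRNA against the empty vector gave 0.01 ± 0.26 (-0.50 to 0.53), and Smndc1 shRNA against Atrx shRNA -0.16 ± 0.26 (-0.68 to 0.36).

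**Figure D2:**
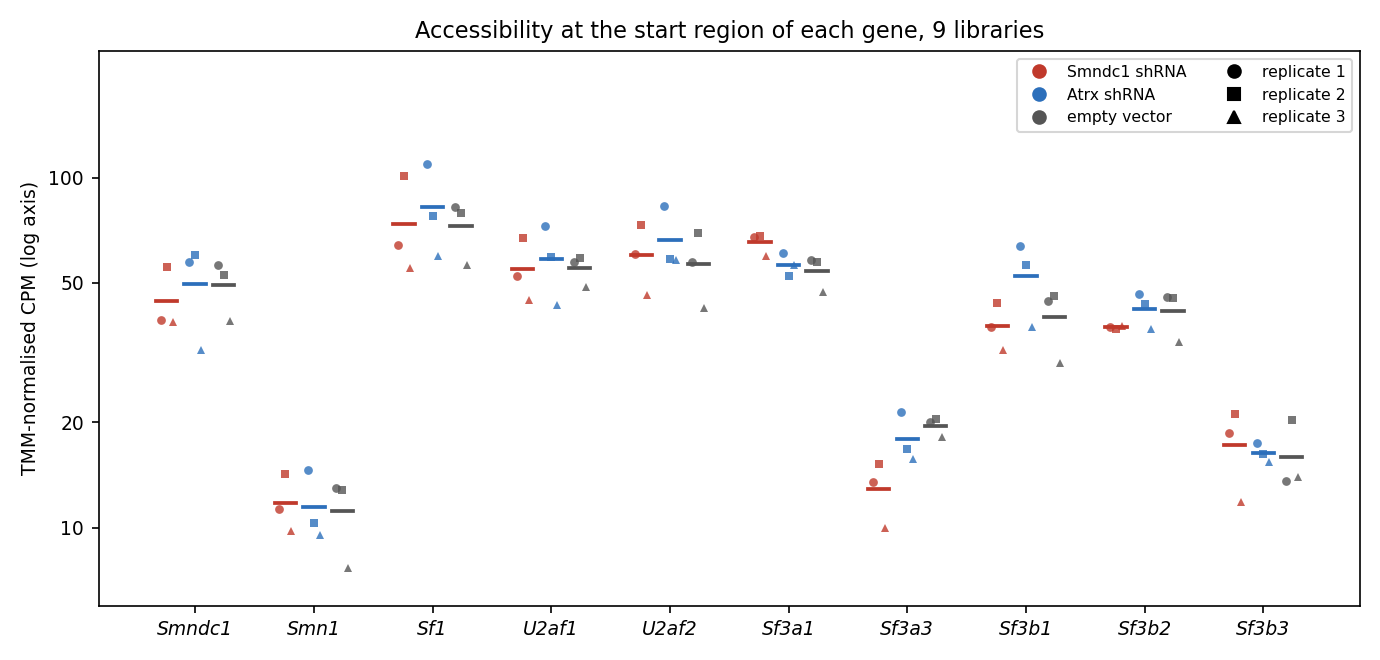
TMM-normalised CPM (log axis) of the start region of each gene, or for U2af2 the region over its lower bound, in the 9 libraries, with bars at group means and symbols for replicates. The 3 groups of Smndc1 overlap, between 32.1 and 59.9 CPM, and the 3 Smndc1 shRNA libraries of Sf3a3 lie below the other 6.

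The main fit used TMM factors and no term for the replicate number. In it no region of the 10 genes passed edgeR's test in any of the 3 comparisons, and DESeq2 and limma voom also called 0. With Smndc1 shRNA against the empty vector 0 of 20 regions were called at an adjusted p under 0.05, where 0.156% of the 80345 regions tested were; all 20 had passed the filter on low counts. That share rests on 125 calls, which became 1 without replicate 1 of the empty vector and 609 without its replicate 3. With trended offsets 0 of 20 were called, against 1.11% of all regions. At an unadjusted p under 0.05 there was 1 of 20 (8.09% of all regions), and 3 of 20 had groups that did not overlap (12.8%). With offsets these were 3 of 20 (12.4% of all regions) and 2 of 20 (16.1%). The start regions were split, 4 higher and 5 lower, with fold changes from -0.60 to 0.27 and a median of -0.01, beside 0.02 over all regions.

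With Atrx shRNA against the empty vector 0 of 20 were called, where 0% of all regions were, and 0 with trended offsets (0.256%). At an unadjusted p under 0.05 there was 1 of 20 (5.75% of all regions), and 2 of 20 had groups that did not overlap (10.5%). With offsets there were 4 of 20 (9.46% of all regions) and 4 of 20 (14.8%). Fold changes at starts were above 0 at 8 and below it at 1, from -0.12 to 0.39, with a median of 0.04 beside 0.01 over all regions. Both comparisons use the same empty vector libraries, so their values are not independent. For Smndc1 shRNA against Atrx shRNA 0 of 20 were called (0.0759% of all regions), and 1 with trended offsets (0.576%). There 4 of 20 had an unadjusted p under 0.05 (5.4% of all regions) and 3 had groups that did not overlap (10.2%). Offsets gave 6 of 20 (9.2% of all regions) and 5 of 20 (13.9%). Summed over each gene's regions and tested with edgeR, 0 of 10 gene loci were called in each of the 3 comparisons, as were 0% of all 16251 loci with Smndc1 shRNA, 0% with Atrx shRNA and 0% between the shRNAs; an unadjusted p under 0.05 was found at 1 of the 10 loci with Smndc1 shRNA (8.25% of all loci), 2 with Atrx shRNA (7.53%) and 3 between the shRNAs (5.72%).

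**Figure D3:**
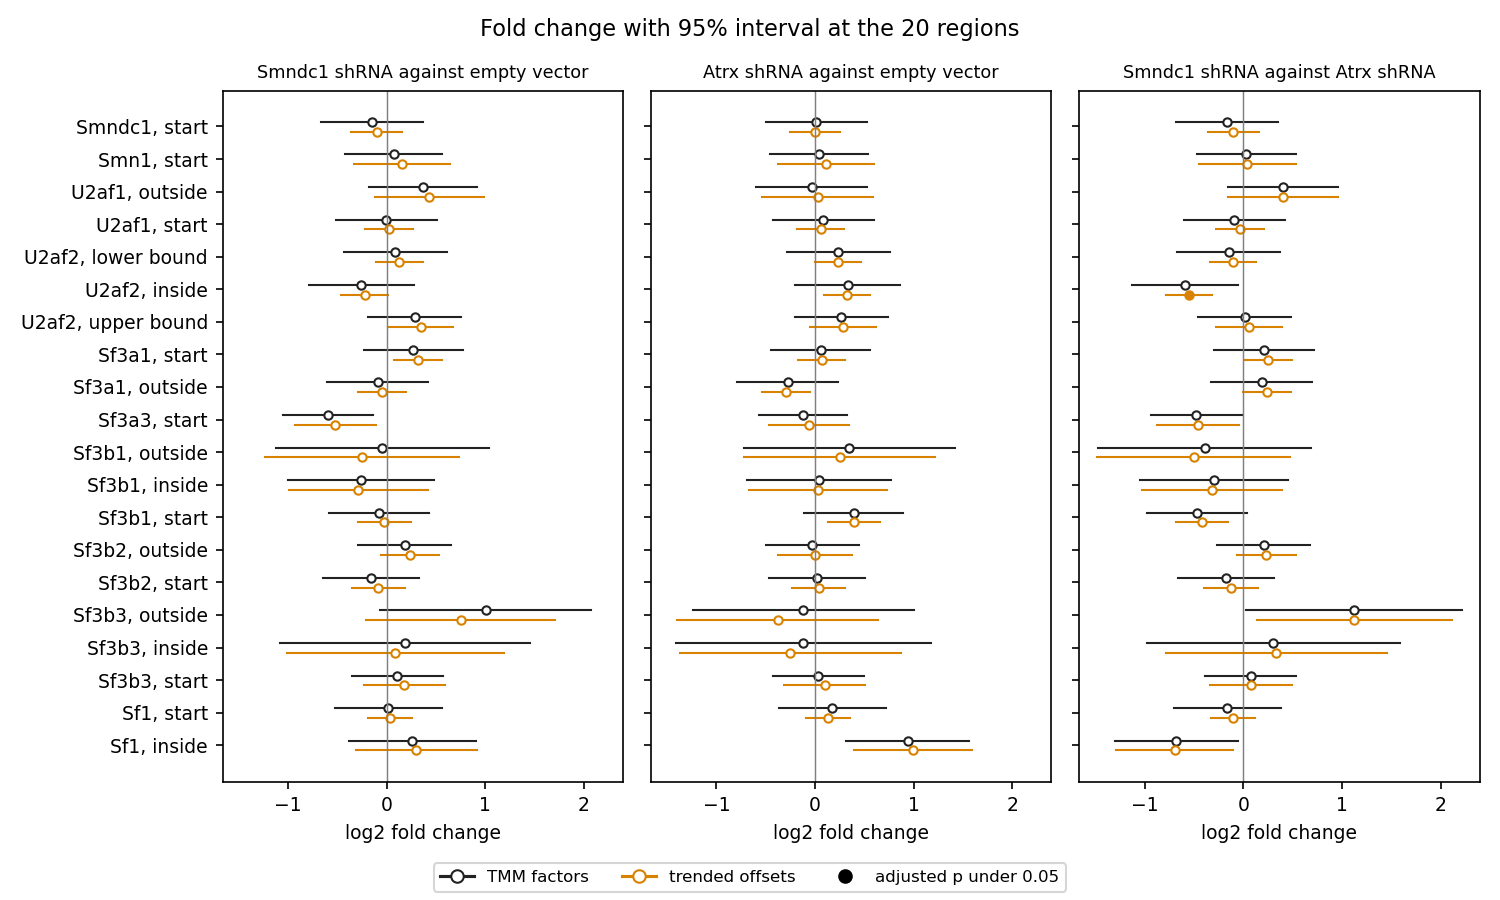
Log2 fold change with its 95% interval at each of the 20 regions (rows) in the 3 comparisons (panels), with TMM factors in black and trended offsets in orange; filled points have an adjusted p under 0.05. The inside region of U2af2, between the shRNAs and with trended offsets, is the filled point, at -0.55.

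Among the factors that read the splice site first, U2af2 held the region called with trended offsets. It lies inside the gene, near its lower bound (chr7:5061482-5062582, 1101 bp), and was U2af2's strongest. It stood at 51.8, 67.8 and 35.7 CPM with Smndc1 shRNA, at 95.9, 75.2 and 62.7 CPM with Atrx shRNA, and at 67.5, 73.4 and 44.5 CPM with the empty vector. In these values the shRNA groups overlap, and replicate 3 is the lowest of each group. Smndc1 shRNA against Atrx shRNA gave a log2 fold change of -0.59 ± 0.27 (95% interval -1.13 to -0.05; edgeR adjusted p = 0.839). After the offsets the levels were 52.7, 56.9 and 44.5 CPM for Smndc1 shRNA, 76.5, 72.9 and 77.5 CPM for Atrx shRNA and 60.5, 64.8 and 55.2 CPM for the empty vector. Each Smndc1 shRNA library was then below each Atrx shRNA library, at -0.55 ± 0.12 (-0.79 to -0.32; edgeR adjusted p = 0.00406). The region was called in 9 of 9 fits with offsets that left out 1 library (-0.63 to -0.46, highest adjusted p = 0.0491), but not without replicate 3 of every group (-0.45, adjusted p = 0.0766), fits chosen after the data had been seen.

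Neither shRNA alone moved this region past the threshold against the empty vector. With offsets the fold change was -0.23 ± 0.12 with Smndc1 shRNA (edgeR adjusted p = 0.431) and 0.33 ± 0.12 with Atrx shRNA (adjusted p = 0.267). The adjoining region over the lower bound, whose bases are shared with Ccdc106 (chr7:5060238-5061411), had a smaller fold change between the shRNAs. It had 60.6, 73.2 and 46.4 CPM with Smndc1 shRNA, 82.9, 58.6 and 58.1 CPM with Atrx shRNA and 57.3, 69.6 and 42.4 CPM with the empty vector. Its fold change between the shRNAs was -0.15 ± 0.26 (-0.67 to 0.37), and -0.11 ± 0.12 with offsets (-0.34 to 0.13). The region over the upper bound, shared with Epn1 (chr7:5079792-5080372), gave 0.01 ± 0.24 between the shRNAs (-0.46 to 0.48). Against the empty vector Smndc1 shRNA gave 0.28 ± 0.24 (edgeR adjusted p = 0.832) and Atrx shRNA 0.27 ± 0.24 (0.958). With offsets Smndc1 shRNA gave 0.34 ± 0.17 (edgeR adjusted p = 0.382), with each of its libraries above those of the empty vector. The differences between these fold changes were not tested.

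**Figure D4:**
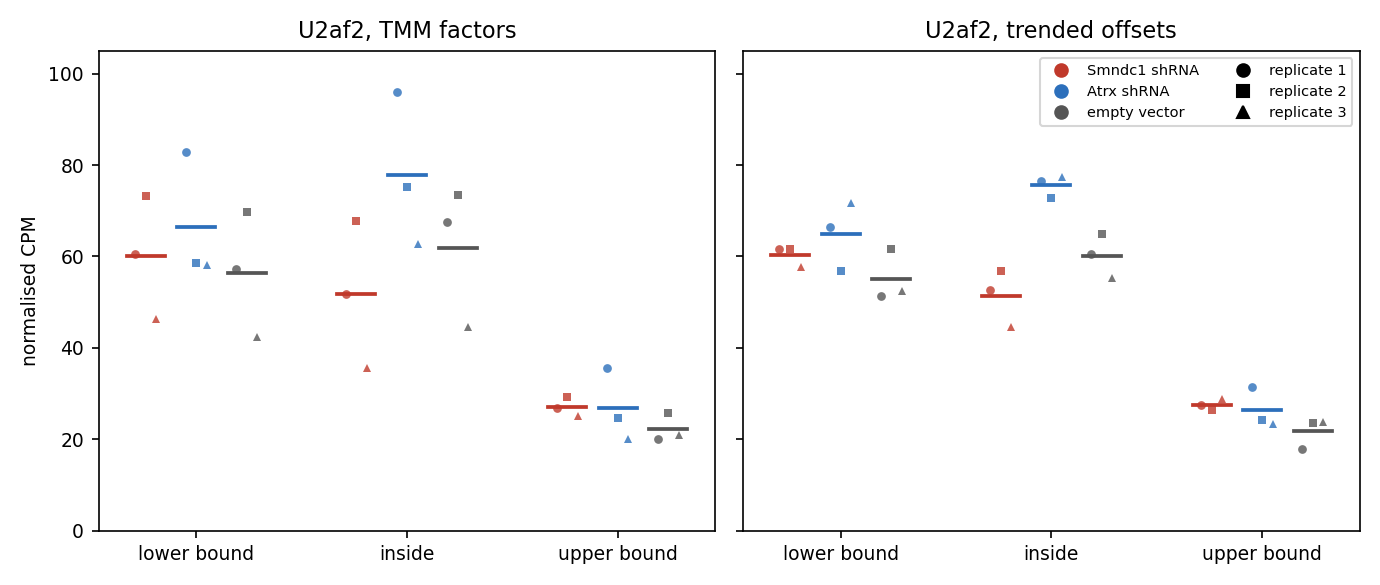
Normalised CPM (y axis) of the 3 U2af2 regions in the 9 libraries, with TMM factors on the left and after trended offsets on the right; bars are group means. In the right panel the 3 Smndc1 shRNA libraries of the inside region lie between 44.5 and 56.9, below the 3 Atrx shRNA libraries between 72.9 and 77.5.

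U2af1, the small subunit, was similar in mean level in the 3 groups at its start (chr17:31658565-31659210). It had 52.5, 67.3 and 44.8 CPM with Smndc1 shRNA, 72.6, 59.4 and 43.3 CPM with Atrx shRNA and 57.5, 59.0 and 48.8 CPM with the empty vector. The groups overlap, with -0.01 ± 0.26 for Smndc1 shRNA (-0.52 to 0.51) and 0.08 ± 0.26 for Atrx shRNA (-0.43 to 0.60), each against the empty vector. A weaker region 158 bp past the far end of the gene had 5.46 to 10.7 CPM, and its fold change with Smndc1 shRNA was 0.37 ± 0.28 (edgeR adjusted p = 0.801).

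At the start of Sf1, the branch point binding protein (chr19:6363416-6363987), levels were 64.1, 101 and 55.3 CPM with Smndc1 shRNA, 109, 77.5 and 59.9 CPM with Atrx shRNA and 82.6, 79.4 and 56.4 CPM with the empty vector. These groups overlap, at 0.01 ± 0.27 with Smndc1 shRNA and 0.18 ± 0.27 with Atrx shRNA. With offsets the Atrx shRNA libraries lay above those of the empty vector, at 0.14 ± 0.11 (edgeR adjusted p = 0.749). A second region of Sf1, inside the gene with its centre 10199 bp from the start (chr19:6373596-6374183), was weak, with 23 to 73 counts. It had 8.99, 10.7 and 11.9 CPM with Atrx shRNA against 4.74, 4.41 and 7.36 CPM with the empty vector, and each Atrx shRNA library was higher. The log2 fold change was 0.94 ± 0.32 (95% interval 0.31 to 1.57) at an unadjusted p of 0.00391, and it missed the threshold over all regions (edgeR adjusted p = 0.644, and 0.144 with trended offsets). With Smndc1 shRNA the same region had 3.38, 5.42 and 11 CPM, a spread that takes in the empty vector libraries. The fold change against the empty vector was 0.26 ± 0.32, and it was -0.33 without replicate 3 of Smndc1 shRNA and 0.59 without its replicate 1. Smndc1 shRNA against Atrx shRNA gave -0.68 ± 0.31 (-1.30 to -0.06), at an edgeR adjusted p of 0.852. That value ran from -1.26 to -0.35 when 1 library was left out.

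Within the SF3a complex, Sf3a3 had the lowest fold change of any start region with Smndc1 shRNA. Its region (chr4:124714397-124715055, 659 bp) had 13.5, 15.3 and 9.98 CPM with Smndc1 shRNA, 21.4, 16.8 and 15.7 CPM with Atrx shRNA and 19.99, 20.5 and 18.2 CPM with the empty vector. The Smndc1 shRNA libraries are the lowest 3 of the 9. Group means were 12.9 ± 2.69 CPM for Smndc1 shRNA, 18.0 ± 2.98 CPM for Atrx shRNA and 19.5 ± 1.23 CPM for the empty vector (SD, n = 3 each). Against the empty vector the fold change with Smndc1 shRNA was -0.60 ± 0.23 (-1.05 to -0.14), at an unadjusted p of 0.0106 by edgeR that did not survive adjustment over all regions (adjusted p = 0.399). Trended offsets gave -0.52 ± 0.21 (adjusted p = 0.235). Against Atrx shRNA it was -0.48 ± 0.23 (adjusted p = 0.900), and Atrx shRNA against the empty vector gave -0.12 ± 0.22.

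Sf3a1, the largest SF3a subunit, had a fold change above 0 at its start (chr11:4160028-4160758). It had 67.8, 68.1 and 59.9 CPM with Smndc1 shRNA, 60.7, 52.3 and 56.3 CPM with Atrx shRNA and 58.1, 57.3 and 47.3 CPM with the empty vector. Each Smndc1 shRNA library was above each empty vector library, at 0.27 ± 0.25 (-0.23 to 0.77; edgeR adjusted p = 0.859); with offsets the value was 0.32 ± 0.12 (adjusted p = 0.210) and the corrected groups overlap. The bases also lie in Ccdc157. The strongest region near Sf3a1 was 3880 bp past its far end, within Tbc1d10a (chr11:4186421-4187156). It had 85.7, 76.4 and 71.6 CPM with Smndc1 shRNA, 68.4, 71.2 and 66.1 CPM with Atrx shRNA and 81.8, 89.6 and 78.0 CPM with the empty vector. All Atrx shRNA libraries were below those of the empty vector, at -0.28 ± 0.26 (adjusted p = 0.964), and the groups overlap once corrected by the offsets.

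Of the SF3b genes, Sf3b1, whose protein clamps the branch point adenosine, had its start region at chr1:55026966-55027736. It had 37.4, 43.9 and 32.1 CPM with Smndc1 shRNA, 63.9, 56.1 and 37.5 CPM with Atrx shRNA and 44.3, 46.0 and 29.6 CPM with the empty vector. The groups overlap, and replicate 3 is lowest in each. Atrx shRNA against the empty vector gave 0.39 ± 0.25 (-0.11 to 0.90; edgeR adjusted p = 0.935), with 0.22 without replicate 1 of Atrx shRNA, 0.22 without replicate 3 of the empty vector and 0.59 without replicate 3 of Atrx shRNA. With trended offsets the Atrx shRNA libraries all lay above, at 0.39 ± 0.13 (adjusted p = 0.212), and Smndc1 shRNA against Atrx shRNA gave -0.42 ± 0.14 (adjusted p = 0.149). Neither passed.

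Sf3b2 had 37.5, 36.9 and 37.7 CPM at its start (chr19:5295155-5295936) with Smndc1 shRNA, 46.4, 43.5 and 36.8 CPM with Atrx shRNA and 45.6, 45.4 and 34.0 CPM with the empty vector. The groups overlap, at -0.16 ± 0.24 with Smndc1 shRNA and 0.02 ± 0.24 with Atrx shRNA. Its other region, in Pacs1, had 32.1 to 36.8 CPM with Smndc1 shRNA, 26.2 to 32.3 CPM with Atrx shRNA and 27.2 to 32.3 CPM with the empty vector. Sf3b3 had 18.7, 21.2 and 11.8 CPM at its start (chr8:110846451-110847313) with Smndc1 shRNA, 17.5, 16.2 and 15.4 CPM with Atrx shRNA and 13.6, 20.4 and 13.9 CPM with the empty vector, again overlapping. A weak region 1744 bp past the far end of Sf3b3 had 33, 27 and 28 counts with Smndc1 shRNA, 9, 12 and 17 with Atrx shRNA and 17, 26 and 7 with the empty vector. Its fold change with Smndc1 shRNA was 1.0 ± 0.54 (-0.07 to 2.07; edgeR adjusted p = 0.657), an interval that takes in 0. Against Atrx shRNA it was 1.12 ± 0.55 (0.03 to 2.21, edgeR adjusted p = 0.909). In CPM each Smndc1 shRNA library lay above all libraries of the other groups, but after offsets they overlapped the empty vector. The weak regions of Sf3b1 (2 regions) and the one inside Sf3b3 overlap between groups in TMM-normalised CPM, with 4 to 46 counts. After offsets the Smndc1 shRNA libraries inside Sf3b3 lay above those of Atrx shRNA, at 0.34 ± 0.57 (edgeR adjusted p = 0.918).

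Smn1, the relative of Smndc1 in snRNP assembly, was the least open start. It had 11.3, 14.2 and 9.81 CPM with Smndc1 shRNA, 14.6, 10.3 and 9.58 CPM with Atrx shRNA and 13.0, 12.8 and 7.67 CPM with the empty vector. The groups overlap, with 0.07 ± 0.25 for Smndc1 shRNA (-0.42 to 0.56) and 0.04 ± 0.25 for Atrx shRNA (-0.46 to 0.54), each against the empty vector. Over all start regions, standard errors between Smndc1 shRNA and the empty vector were 0.23 to 0.27, and 0.11 to 0.25 with offsets.

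The regions most like the Smndc1 start across the 9 libraries, by Pearson r of log2 CPM among 43186 candidates in coding genes, lay in Arhgap8 (r = 0.970), Ccdc178 (0.967), at the shared start of Pecr and Tmem169 (0.964), in Wsb2 (0.964) and in Tmem202 (0.964). Of the partners' start regions U2af1 was most like it (r = 0.886), then Sf1 (0.839), Sf3b1 (0.796), Sf3b2 (0.742), Smn1 (0.692), Sf3a3 (0.532), Sf3b3 (0.384) and Sf3a1 (0.119). The share of candidates with a lower r was 98.6% for U2af1, 84.2% for Smn1, 73.2% for Sf3a3 and 54.9% for Sf3a1. The 9 libraries share the split in contrast described above, and r is given as a description.

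Among 69 other genes of the pathway (U2 and 3-prime splice site factors, the SMN complex, Sm proteins, tri-snRNP and U1 proteins), 169 of 170 regions were tested. In the main fit, with TMM factors, none passed in the 3 comparisons, 0 higher and 0 lower. Median fold changes were 0.05 for Smndc1 shRNA and 0.07 for Atrx shRNA, each against the empty vector, and -0.05 between the shRNAs. At an unadjusted p under 0.05 there were 8 of 169 with Smndc1 shRNA, where 8.09% of all regions were, 12 with Atrx shRNA (5.75%) and 5 between the shRNAs (5.4%). With trended offsets these counts were 32 (12.4% of all regions), 31 (9.46%) and 15 (9.2%). Trended offsets called 1 region higher with Smndc1 shRNA and 1 higher with Atrx shRNA, each against the empty vector, and 0 between the shRNAs, where it called 1.11%, 0.256% and 0.576% of all regions. The Smndc1 shRNA one lies within 5 kb of Ddx39b, an RNA helicase that U2AF recruits, but in no coding gene's body (chr17:35256100-35256913). It had 16.8, 22.7 and 21.8 CPM with Smndc1 shRNA and 15.9, 16.4 and 23.0 CPM with Atrx shRNA. With the empty vector it had 13.5, 9.34 and 13.0 CPM. The libraries of both shRNAs lie above those of the empty vector. The region was picked by its call against the same empty vector libraries, so this is no separate evidence for Atrx shRNA. Its fold change with Smndc1 shRNA was 0.85 ± 0.21 with offsets (edgeR adjusted p = 0.0143) and 0.78 ± 0.23 with TMM factors (adjusted p = 0.181), and it was called in 5 of 9 fits that left out 1 library (adjusted p = 0.281 without replicate 2 of the empty vector). This region was known from earlier results of these data when the list was made. The Atrx shRNA one lies within 5 kb of Ddx42, a helicase of the U2 particle, but outside its body and in that of Ftsj3 (chr11:106253669-106254976). Levels were 15.4, 19.2 and 14.2 CPM with Smndc1 shRNA and 21.5, 19.7 and 19.6 CPM with Atrx shRNA. The empty vector had 12.3, 9.99 and 13.3 CPM. The Smndc1 shRNA libraries also lie above those of the empty vector. This region too was picked by a call against those libraries, so this is no separate evidence for Smndc1 shRNA. Atrx shRNA gave 0.84 ± 0.21 with offsets (adjusted p = 0.0444) and 0.78 ± 0.23 with TMM factors (adjusted p = 0.449), and was called in 3 of 9 such fits (adjusted p = 0.333 without replicate 2 of the empty vector).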

How the data were processed

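ATAC-seq libraries of alphaTC1 cells were sequenced as paired-end reads, per the labels' protocols. The deposited table holds the authors' raw counts for 80827 consensus regions, and a deposited BED file gives each region's position on mm10 (GRCm38). The submitters' processing notes name MACS2 2.2.7.1, a peak caller, then Bowtie2 2.4.4 with bedtools 2.27.1, and also SAMtools 2.8.0 and deepTools 3.5.1. What each did, how the regions came about, and what was counted in them, is not given in the sources used here. Columns not matched to a sample numbered 0.

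Counts were tested in R 4.3.3 with edgeR 4.0.16 and its quasi-likelihood F test: TMM factors, filterByExpr with a minimum count of 10, all 9 libraries in 1 fit, Benjamini-Hochberg adjustment over all 80345 regions kept, called under 0.05. Intervals are 95%. The fit was tested on simulated data. Alternatives were trended offsets, RLE factors, DESeq2 1.42.0, limma 3.58.1 (voom), no filter, a mean count of 50, a replicate block, loci extended by 10 kb, other thresholds and each library left out. Tables and figures were made in Python 3.11.15 (scipy 1.17.1, numpy 2.4.6, matplotlib 3.10.9, pandas 2.3.3). P-values set the difference between groups against the spread between these libraries, and intervals cover no error shared by a group.

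The genes, lists and motifs were chosen with earlier results of these data known. Named were all 10 genes, each gene's strongest region, member regions with an unadjusted p under 0.01 against the empty vector, called list regions, and the 5 regions most like Smndc1; other member regions are given for completeness and were described after their values were seen.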

Additional observations from a re-analysis of the deposited data

How the results depend on the processing

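In the main fit no member region, member locus or list region was called in the 3 comparisons. Counts of 0 stood under every other planned setting except those named here. Of the 20 member regions, 1 was called between the shRNAs with trended offsets, that inside U2af2 (0.576% of all regions). The replicate block also called it (-0.62, edgeR adjusted p = 0.0281), where 0.764% of all regions were called. So did the block with offsets (-0.56, edgeR adjusted p = 0.000298), where 1.41% of all regions were. With Atrx shRNA the block with offsets called 1, that inside Sf1 (1.02, edgeR adjusted p = 0.0388), against 0.988% of all regions. Of the loci, the block called 1 with Atrx shRNA (U2af2, edgeR adjusted p = 0.0418), where it called 2.17% of all loci. Of the 169 list regions with Smndc1 shRNA, trended offsets called 1, the block 1 (1.58% of all regions) and both together 6 (2.63%); with Atrx shRNA these were 1, 1 (0.288%) and 6 (0.988%). Chosen after seeing the data, offsets without replicate 3 of every group called 2 and 4 list regions in these comparisons, and offsets without 1 library called 0 to 3 in each, and 1 member region between the shRNAs in each of 9 fits. Same-numbered libraries of different groups deviated together with r from -0.0392 to 0.419, and different-numbered ones with r from -0.375 to 0.299. Among the replicate 3 libraries r was 0.313, 0.352 and 0.419. The labels do not say what the numbers share, and the main fit did not take them as pairs. Over all regions the calls with Smndc1 shRNA were 125 with TMM factors, 894 with offsets, 1268 with the block and 19 with DESeq2, and 1 (without replicate 1 of the empty vector) to 609 (without its replicate 3) with 1 library left out. Of the 30 fold changes of strongest regions, 15 changed sign in some planned refit, none of these larger than 0.18. Depth limits the weak regions: at 4 to 73 counts, standard errors reached 0.65.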
